A study of Mus musculus with 2 samples.

Results

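The genes described here are those of the major histocompatibility complex (MHC) class I molecule and of the machinery that supplies its peptides. The group holds 10 of the 32285 genes counted. They are the classical heavy chains H2-K1 and H2-D1, the non-classical heavy chains H2-Q6, H2-Q7, H2-T23 and H2-M2, the light chain B2m (beta-2-microglobulin), the peptide transporter subunits Tap1 and Tap2, and the immunoproteasome subunit Psmb8. They were taken from a list of gene names without regard to their measured level, and all 10 were found in both libraries. Single-cell RNA sequencing had been done on CD45+ cells, the leukocytes, sorted alive from the adrenal glands of C57Bl/6 mice, 7 weeks old and with no treatment or engineered allele named in the labels. Each sex was represented by 1 droplet library. How many animals went into a library is not given in the sources used here, so there is no spread between animals to compare with, and no p-value is printed.

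A class I molecule is a heavy chain held together by B2m with a short peptide in its groove. The peptide is cut from cell proteins by the proteasome, whose immunoproteasome form carries Psmb8, and is carried into the endoplasmic reticulum by the Tap1-Tap2 pump, where it is loaded. Nearly all nucleated cells show H2-K1 and H2-D1 to CD8 T cells and to the inhibitory receptors of natural killer (NK) cells, whereas the non-classical chains are shown by fewer cells or to other receptors, H2-T23 (Qa-1) for example to the CD94-NKG2 receptors of NK cells. Transcription of most of these genes is raised by interferons.

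The female library held 16218309 unique molecular identifiers (UMIs, one for each captured RNA molecule) over 3963 barcodes and the male library 9512670 over 2685, and 2 barcodes occurred in both. After filtering, 3693 female and 2450 male cells remained, of which 3593 and 2296 fell into named classes. They were T cells (683 and 368 female and male cells), NK cells (861 and 369), innate lymphoid cells (99 and 81), B cells (515 and 269), monocytes (300 and 180), macrophages that are neither Lyve1-high nor Aldh1a2-high, called other macrophages (641 and 530), Lyve1-high macrophages (93 and 164), Aldh1a2-high cells (88 and 101), type 2 dendritic cells (157 and 94), type 1 dendritic cells (41 and 36), neutrophils (47 and 50), endothelial cells (43 and 48) and mast cells (25 and 6). Each class carried the markers of its name, with reservations such as those that follow. The 10 macrophage markers summed to 52820.5 and 41212 CPM (UMIs of the genes scaled to 1000000 UMIs of the class) in the female and male other macrophages but to 4013 and 4223 CPM in the Aldh1a2-high cells. Those cells are therefore called by Aldh1a2, the gene of a retinoic acid synthesising enzyme, which was among their leading genes behind Lyz1 and Retnla. The 6 markers of the Aldh1a2-high list summed to 26467 and 31894 CPM in them. The 6 markers of plasmacytoid dendritic cells summed to 611 and 364 CPM in the type 2 dendritic cells, where the 9 B-cell markers reached 18035 and 275 CPM. The 7 type 2 dendritic cell markers summed to 1962 and 2787 CPM there but also to 2103 and 2536 CPM in Lyve1-high macrophages. Innate lymphoid cells held 3183 and 2149 CPM of their own 9 markers and 2063 and 1898 CPM of the 10 T-cell markers. They also held 17.4 and 980 CPM of 8 adrenal cortex markers. The endothelial cells, which a CD45+ sort should leave out, held 9749 and 10145 CPM of the macrophage markers and 2283 and 713 CPM of 8 markers of adrenal cortex cells.

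On the mouse assembly GRCm38 (mm10), 9 of the 10 genes lie on chromosome 17 and B2m lies on chromosome 2. The classical genes span chr17:33996017-34000347 (H2-K1, minus strand) and chr17:35262730-35267499 (H2-D1, plus strand). H2-Q6 (chr17:35424850-35430055) and H2-Q7 (chr17:35439155-35443773) follow on the plus strand, and H2-T23 (chr17:36029773-36032855) and H2-M2 (chr17:37480851-37483552) lie on the minus strand. Tap1 (chr17:34187553-34197225), Psmb8 (chr17:34197721-34201454) and Tap2 (chr17:34203527-34216321) are neighbours on the plus strand, and B2m spans chr2:122147686-122153083. Counting in this kit starts from the 3′ end of a transcript, and of the windows of 55 bases, the length read, in the last 400 bases of each gene's coding transcripts, 92.5% were unique to H2-K1, 93.4% to H2-D1, 98.1% to H2-M2, 97.1% to Tap1 and 100% each to H2-Q7, B2m, Tap2 and Psmb8. For H2-Q6 only 51.3% were unique and 30.5% were shared with H2-Q7, so the H2-Q6 values are uncertain and may lack reads. For H2-T23, 68.5% were unique and 21.1% were shared with Rab33b, so its values are uncertain as well.

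The promoters of H2-K1, H2-D1, H2-Q6 and H2-Q7 share letters that those of H2-T23 and H2-M2 lack. RefSeq promoters (GRCm38.p6, 250 bases before to 50 after the start) were matched for 9 of the 10 genes and searched on both strands. The letters GGGGATTCC, which spell a kappa B site, were found in 4 of them, H2-K1, H2-D1, H2-Q6 and H2-Q7, and in 0.249612% of all 32851 promoters. The same 4 promoters held GAAGTGAAA, the core of the interferon response element of class I genes (0.505% of all promoters), and 8 of the 9 held ATTGG, the inverted CCAAT box (37.4% of all). GAAGTGAAA and ATTGG were picked after these promoters had been read, so finding them here is no test. GAAANNGAA, the core of the interferon-stimulated response element, was found in H2-T23 and B2m (8.56% of all promoters), and TTCNNNGAA, the gamma-activated site, in Psmb8 (8.30% of all). No match overlaps another in these promoters. A match of letters is a description and not a bound site. Stretches just upstream of the start are shown for the 4 genes that hold all 3 of the kappa B, interferon response and CCAAT letters, and for H2-M2, which holds the CCAAT letters alone. These 4 genes did not all follow the same order of cell classes. Neutrophils had the lowest mean of both libraries for H2-K1, H2-Q6 and H2-Q7 but not for H2-D1. For H2-D1 they were highest in the female library and in the middle of the order in the male library. The RefSeq start of H2-D1 lies within the span given above. The stretches read 5′ to 3′ on the strand of the gene, with the kappa B, interferon response (TTTCACTTC on this strand) and CCAAT letters in capitals.
H2-K1 (chr17:34000348-34000473, minus strand): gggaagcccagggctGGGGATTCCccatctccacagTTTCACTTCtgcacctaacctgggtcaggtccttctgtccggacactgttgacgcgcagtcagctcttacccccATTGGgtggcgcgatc
H2-D1 (chr17:35262908-35263060, plus strand): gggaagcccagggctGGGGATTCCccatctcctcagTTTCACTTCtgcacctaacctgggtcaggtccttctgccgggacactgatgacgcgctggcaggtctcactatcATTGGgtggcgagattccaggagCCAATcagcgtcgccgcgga
H2-Q6 (chr17:35424662-35424814, plus strand): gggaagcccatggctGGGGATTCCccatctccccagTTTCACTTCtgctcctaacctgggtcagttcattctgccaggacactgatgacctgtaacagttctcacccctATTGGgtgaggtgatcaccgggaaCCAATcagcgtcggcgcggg
H2-Q7 (chr17:35439007-35439154, plus strand): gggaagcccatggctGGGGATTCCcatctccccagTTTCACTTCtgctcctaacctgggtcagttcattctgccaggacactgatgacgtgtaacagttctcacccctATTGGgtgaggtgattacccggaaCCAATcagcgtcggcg
H2-M2 (chr17:37483555-37483704, minus strand): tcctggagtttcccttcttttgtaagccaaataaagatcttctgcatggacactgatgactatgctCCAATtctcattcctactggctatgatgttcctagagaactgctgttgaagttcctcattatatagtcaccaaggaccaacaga

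H2-K1, one of the classical heavy chains of this strain, was highest in NK cells and innate lymphoid cells and lowest in neutrophils among the 12 classes with at least 30 cells in each library, to which every order given here is limited. Levels are given as CPM with exact Poisson 95% intervals, which here and throughout cover counting error only. NK cells held 2748 CPM (95% interval 2697 to 2799.5) in the female and 3050 CPM (2973 to 3129) in the male library. Innate lymphoid cells followed at 2755 and 2780.1 CPM (female and male library, as in all pairs that follow) and T cells at 2299 and 2514 CPM. These lymphocytes lay above every myeloid class in both libraries. Endothelial cells held 1781 and 1712 CPM, monocytes 1359.7 and 1408 CPM, other macrophages 1341 and 1337 CPM and Lyve1-high macrophages 1306 and 1258 CPM. B cells stood below these at 1178 and 1067 CPM, beside type 2 dendritic cells at 1074 and 896 CPM. The lowest levels were 792 and 838 CPM in Aldh1a2-high cells, 728 and 602 CPM in type 1 dendritic cells and 772 and 506 CPM in neutrophils. Classes are called separated where both libraries of one lay above both of the other, and for H2-K1 this held for 8 of the 11 neighbouring pairs in that order. The pairs NK and innate lymphoid cells, B and type 2 dendritic cells, and type 1 dendritic cells and neutrophils overlapped.

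H2-D1, the other classical heavy chain, varied less. NK cells held 1948 CPM (95% interval 1905 to 1992) in the female and 2104 CPM (2039.6 to 2169) in the male library, and innate lymphoid cells 1920.1 and 2039 CPM. Neutrophils, last for H2-K1, were highest for H2-D1 in the female library at 2209 CPM. In the male library they held 1506 CPM, below endothelial cells, T cells, monocytes and Lyve1-high macrophages. The classical chains thus ranked them differently, less so in the male library. Endothelial cells (1588 and 1772 CPM), Lyve1-high macrophages (1644 and 1557), monocytes (1605 and 1579), other macrophages (1631 and 1488) and T cells (1482 and 1620.0) each overlapped the next in order. Type 2 dendritic cells (1151 and 1209 CPM), Aldh1a2-high cells (1034 and 1026), B cells (985 and 975) and type 1 dendritic cells (746 and 874) followed, each separated from the one before it. The mean of the highest class was 2.50 times that of the lowest, against 4.54 times for H2-K1.

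**Figure D1:**
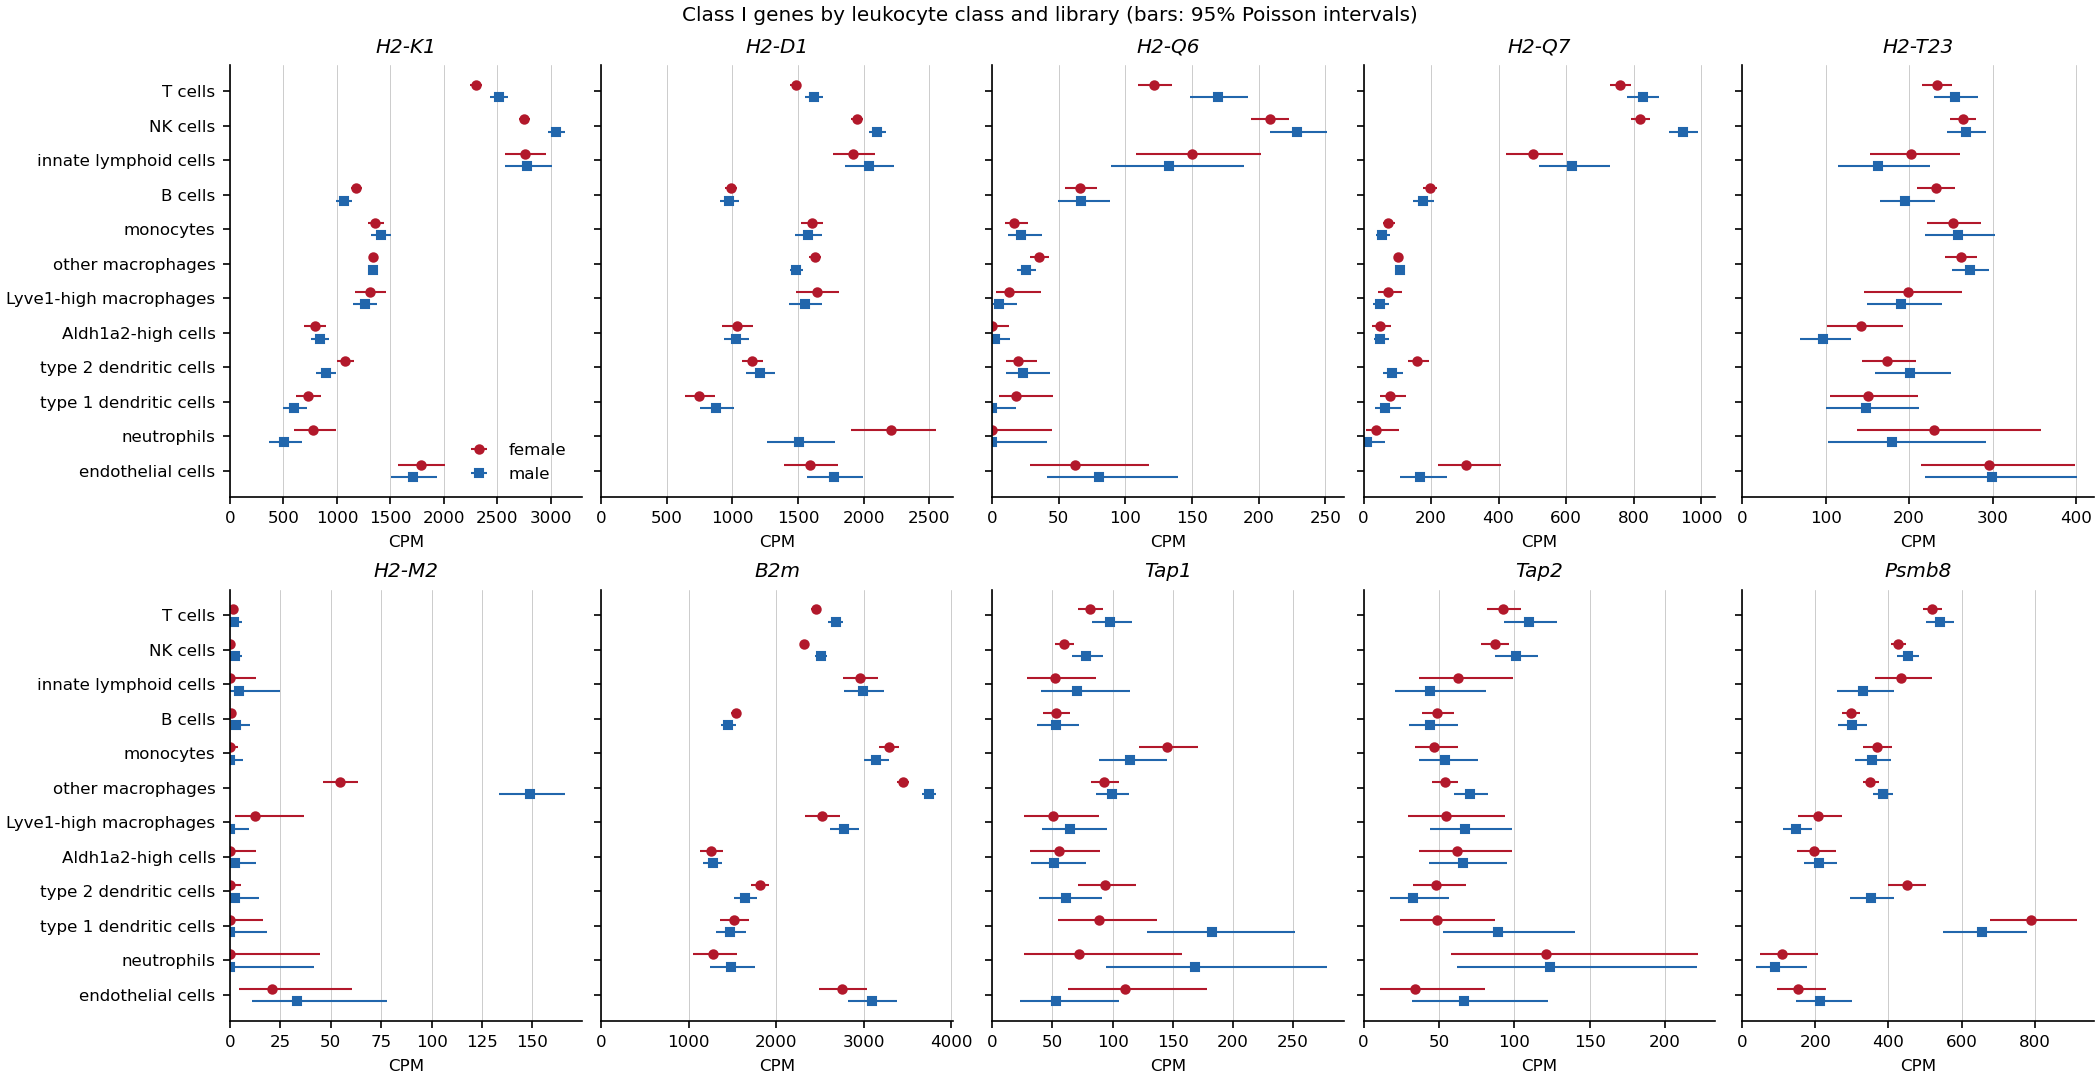
Level of each of the 10 genes in CPM in the 12 cell classes, with 1 point for the female and 1 for the male library and exact Poisson 95% intervals. H2-K1 spans 506 to 3050 CPM, whereas H2-M2 is above 50 CPM only in other macrophages.

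H2-Q6 and H2-Q7, neighbouring non-classical (Qa-2) heavy chain genes, were highest in NK cells, with T and innate lymphoid cells next. H2-Q7 reached 819.6 CPM (95% interval 792 to 848) in the female and 947 CPM (905 to 992) in the male library in NK cells. T cells held 760.3 and 827 CPM and innate lymphoid cells 501 and 618 CPM. The next classes were lower, with 303 and 167 CPM in endothelial cells, 196 and 175 CPM in B cells, 159.9 and 84.0 CPM in type 2 dendritic cells and 101 and 107 CPM in other macrophages. Type 1 dendritic cells (80.0 and 64.2 CPM), monocytes (74.0 and 55.7), Lyve1-high macrophages (71.6 and 49.0) and Aldh1a2-high cells (48.4 and 49.3) each overlapped the next in order. Neutrophils held 3 and 1 UMIs in all. For comparison at the same depth, 1000 UMIs were drawn from each cell that held as many, which left out 8 and 3 NK cells and 10 and 5 other macrophages. After the draw, 53.8% and 59.8% of NK cells and 8.56% and 8.38% of other macrophages had an H2-Q7 UMI. Without the draw the shares were 90.1% and 93.8% of NK cells (median 4120 and 4858 UMIs) and 28.9% and 29.2% of other macrophages (median 3973 and 3494). In neutrophils, which held 3 and 1 UMIs of the gene, the shares were 4.26% and 2% (median 1649 and 1654). H2-Q6 was lower but ordered alike, from 208 and 229 CPM in NK cells and 121 and 169 CPM in T cells to 65.7 and 66.6 CPM in B cells and 34.9 and 25.1 CPM in other macrophages. No H2-Q6 UMI was found in neutrophils, where 3 UMIs would have been 36.2 and 33.7 CPM.

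H2-T23, the Qa-1 heavy chain, whose reads are less surely assigned, was found in all 12 classes, and 5 of its 11 neighbouring pairs were separated. Other macrophages held 262 CPM (95% interval 243 to 281) in the female and 273 CPM (251 to 296) in the male library. NK cells (264 and 268 CPM), monocytes (252 and 258), T cells (233 and 255) and B cells (232 and 196) were near these. Neutrophils (229 and 179.8 CPM), Lyve1-high macrophages (198 and 191), type 2 dendritic cells (173 and 201), innate lymphoid cells (202 and 163) and type 1 dendritic cells (151 and 148) had lower means. Endothelial cells were highest at 296 and 299.8 CPM and Aldh1a2-high cells lowest at 142 and 96.2 CPM, a ratio of means of 2.50.

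B2m, the light chain shared by all class I molecules, followed another order than H2-K1 and H2-D1, with other macrophages first. Other macrophages held 3452 CPM (95% interval 3384 to 3520.5) in the female and 3746 CPM (3666 to 3828) in the male library. Monocytes held 3285 and 3140.4 CPM, and the next group of classes, from innate lymphoid cells (2957 and 2996 CPM) over endothelial cells (2750.1 and 3091), Lyve1-high macrophages (2524 and 2778) and T cells (2450.1 and 2680.1) to NK cells (2323 and 2513), overlapped. NK cells, with the highest mean of H2-K1, H2-D1, H2-Q6 and H2-Q7, were below other macrophages and monocytes for B2m. Type 2 dendritic cells (1813 and 1644 CPM), type 1 dendritic cells (1519 and 1476), B cells (1536 and 1449.7) and neutrophils (1279 and 1484) were lower. Aldh1a2-high cells were last at 1259 and 1272 CPM.

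Of the processing genes, Psmb8 was ordered across the classes, with 5 of its 11 neighbouring pairs separated, and Tap1 and Tap2 hardly, with 0 and 1. Psmb8, which replaces a catalytic subunit of the standard proteasome in the immunoproteasome, was highest in type 1 dendritic cells at 791 CPM (95% interval 679 to 916) in the female and 657 CPM (549.8 to 778) in the male library. T cells (519.8 and 540.2 CPM), NK cells (427 and 454) and type 2 dendritic cells (449 and 351) followed. Other macrophages (351 and 384 CPM) and monocytes (368 and 356) overlapped, and B cells (297 and 299.7) were separated below them. Aldh1a2-high cells (197 and 211 CPM), endothelial cells (151 and 213) and Lyve1-high macrophages (206 and 147) were lower, and neutrophils last at 109 and 89.9 CPM. Tap1 and Tap2, the subunits of the peptide pump, were sparse in all classes. Tap1 ranged from 52.7 and 52.7 CPM in B cells to 88.8 and 183 CPM in type 1 dendritic cells, with 145 and 115 CPM in monocytes and 93.1 and 99.1 CPM in other macrophages. Tap2 ranged from 48.3 and 33.1 CPM in type 2 dendritic cells to 121 and 124 CPM in neutrophils, the latter from 10 and 11 UMIs, with 92.5 and 109 CPM in T cells and 87.1 and 101 CPM in NK cells.

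NK cells and T cells were set against other macrophages, within each library, to ask how lymphocytes and macrophages differ in class I genes. A gene was called where its CPM ratio passed 1.5-fold in the same direction in both libraries. The ratio of H2-K1 in NK cells to that in other macrophages was 2.05 (95% interval 1.97 to 2.13) in the female and 2.28 (2.18 to 2.38) in the male library. That of H2-Q7 was 8.10 (95% interval 7.18 to 9.17) in the female and 8.82 (7.70 to 10.2) in the male library, and that of H2-Q6 5.97 and 9.11 (female and male library). These 3 of the 10 genes were higher, against 27.3% of all genes with at least 50 UMIs, and only H2-M2 was lower (20.2% of all genes). B2m, at 0.673 and 0.671, did not pass 1.5-fold. T cells had 4 genes higher, H2-K1 (1.71 and 1.88), H2-Q6 (3.48 and 6.73), H2-Q7 (7.52 and 7.70) and Tap2 (1.72 and 1.56), against 18.7% of all genes, and H2-M2 lower (27.7% of all genes). Over all genes the median log2 ratio of NK cells to other macrophages was 0.25 and 0.27, and relative to it H2-K1, H2-Q6 and H2-Q7 stayed higher and H2-M2, B2m and Tap1 were lower.

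B cells held less B2m, H2-D1 and Tap1 than other macrophages and more H2-Q6 and H2-Q7. Their ratio to other macrophages for B2m was 0.445 (95% interval 0.426 to 0.464) in the female and 0.387 (0.362 to 0.413) in the male library, with H2-D1 at 0.604 and 0.656 and Tap1 at 0.565 and 0.532. With H2-M2 these made 4 genes lower, against 35.1% of all genes. H2-Q6 (1.88 and 2.65) and H2-Q7 (1.94 and 1.63) were higher in B cells, which brought the calls in either direction to 6 of the 10 genes, against 45.2% of all genes. All genes together had a median log2 ratio of -0.34 and -0.35, and relative to it the lower calls on H2-D1 and Tap1 were lost while those on B2m and H2-M2 stayed. T cells set against B cells had 8 of 9 comparable genes higher (21.8% of all genes), with the largest ratio for H2-Q7 (3.88 and 4.73), and H2-T23 alone was not called. Relative to the median log2 ratio of all genes (0.31 and 0.27), H2-K1, H2-Q7 and Tap2 remained. Monocytes differed from other macrophages only in H2-M2, which was lower (16.4% of all genes). The median log2 ratio of B cells to other macrophages was -0.37 over the 10 genes, against -0.38 over the genes tested in both libraries, each gene's ratio being averaged over the libraries first (the pairs of medians are over the genes tested in each library). Neutrophils had 3 of 6 comparable genes below monocytes (46.7% of all genes), H2-K1 (0.568 and 0.359), B2m (0.390 and 0.472) and Psmb8 (0.295 and 0.253). As the median log2 ratio of all genes was -0.64 and -0.59 there, only Psmb8 was lower relative to it.

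**Figure D2:**
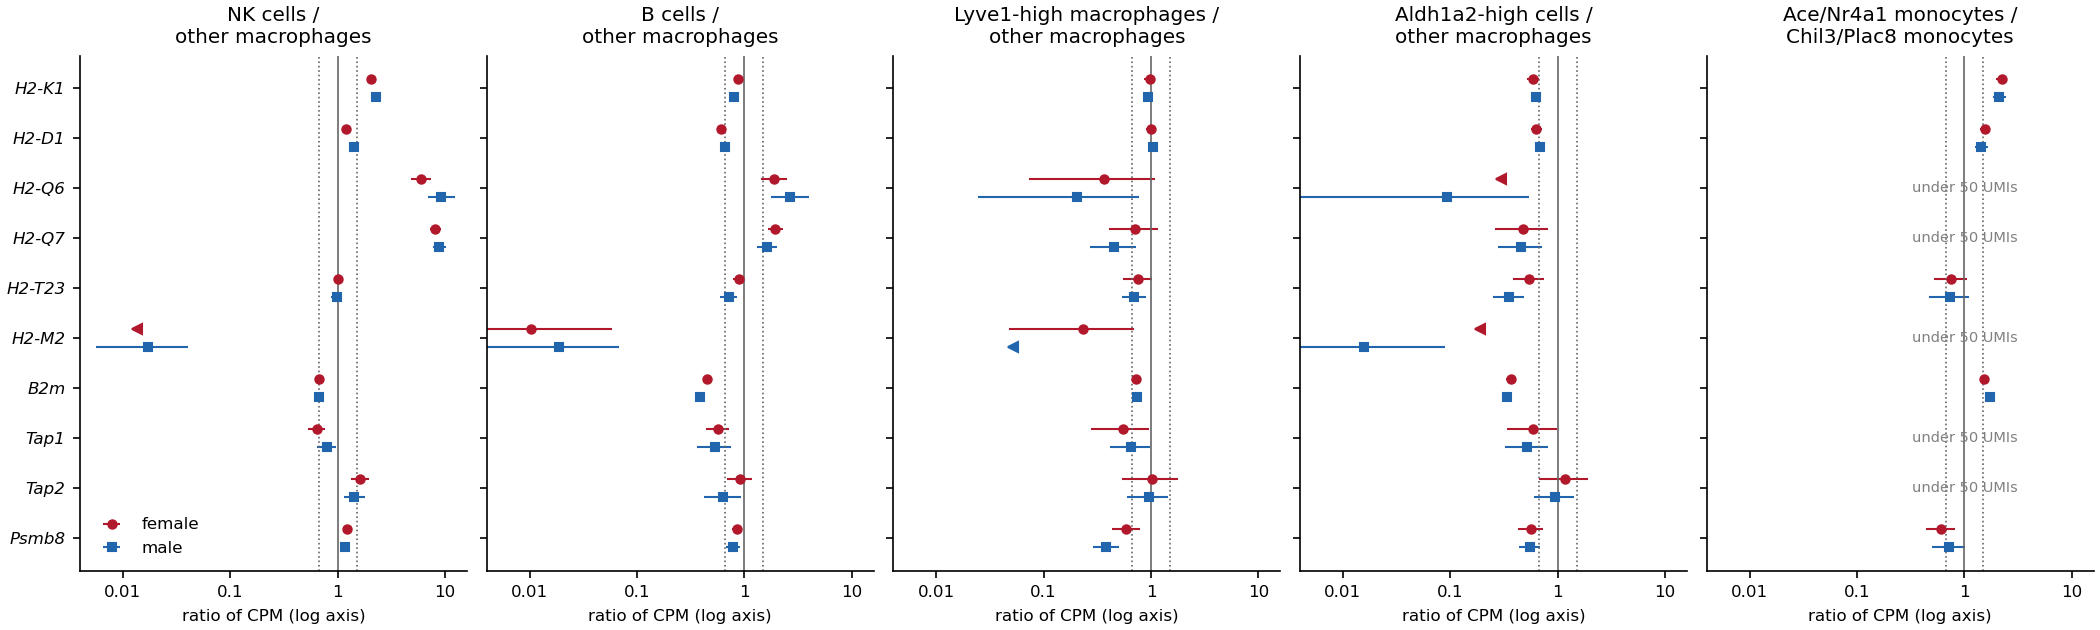
Ratio of CPM in 5 of the comparisons between cell classes or clusters (log axis) for each of the 10 genes in the female and male library, with exact conditional binomial 95% intervals and lines at 1.5-fold. Left-pointing triangles mark the bound set by 3 UMIs where the first class had none, bars are clipped at the axis edge, and genes with too few UMIs are written as under 50 UMIs. In NK cells H2-Q7 lies at 8.10 and 8.82, far above 1, and H2-M2 far below.

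Between clusters of the same class, from 0 to 5 of the genes were called. The Ace/Nr4a1 monocytes, which carry the genes of patrolling monocytes, had more H2-K1 than the Chil3/Plac8 monocytes, at 2426 and 2321 against 1088 and 1103 CPM, a ratio of 2.23 and 2.10. Their B2m, at 4534 and 4614 CPM, exceeded that of every cell class, but not that of the Aif1/Cxcl14 macrophage cluster in the male library. The B2m of the Ace/Nr4a1 monocytes was 1.53 and 1.74 times that of the Chil3/Plac8 monocytes. These 2 of 5 comparable genes were higher, against 12.8% of all genes. Type 1 dendritic cells exceeded type 2 dendritic cells in Psmb8 alone of 5 comparable genes (1.76 and 1.87, 4.39% of all genes). The Dapl1/Cd8b1 T cells, which express genes of naive CD8 T cells, held less H2-D1 (0.646 and 0.597), H2-Q6 (0.378 and 0.395) and H2-Q7 (0.654 and 0.495) than the Cd40lg/Tcrg-C2 T cells (21.9% of all genes), of which H2-Q6 stayed called relative to the median log2 ratio of all genes (-0.36 and -0.46). None of 9 comparable genes was called between the Itga1/Xcl1 and the Prf1/Klra4 NK cells (9.29% of all genes either way), and none of 6 between the Mzb1/Zcwpw1 and the Ighd/Fcer2a B cells (24%).

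Aldh1a2-high cells held less of most of the genes than other macrophages. Against other macrophages, 8 of the 10 genes were lower in both libraries (18.4% of all genes), all but H2-D1 and Tap2. The ratio for B2m was 0.365 (95% interval 0.328 to 0.405) in the female and 0.340 (0.311 to 0.371) in the male library. Those for the heavy chains were 0.591 and 0.627 for H2-K1, 0.542 and 0.353 for H2-T23 and 0.479 and 0.459 for H2-Q7, with 0 and 1 H2-Q6 UMIs and 0 and 1 H2-M2 UMIs. Psmb8 stood at 0.562 and 0.550 and Tap1 at 0.594 and 0.521. The median log2 ratio of the 10 genes was -0.97, against -0.06 over the genes tested in both libraries, with each gene's ratio averaged over the libraries. The same 8 were lower relative to the median log2 ratio of all genes (-0.04 and -0.04). When cells were classed by a gate on their own marker UMIs instead of by clusters, only H2-Q6 and H2-M2 were called, so this result rests on how the cells were grouped. Lyve1-high macrophages had 4 of the 10 genes lower (12.9% of all genes), Psmb8 (0.588 and 0.382), Tap1 (0.543 and 0.650), H2-Q6 from 3 and 2 UMIs, and H2-M2, and the gate left H2-M2 alone. Their heavy chains H2-K1 and H2-D1 were within 1.5-fold of those of other macrophages.

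H2-M2, a non-classical heavy chain far from the classical genes on chromosome 17, had its highest level among the named classes in other macrophages and was at or near 0 in most others. Other macrophages held 54.4 CPM (95% interval 46.2 to 63.7) in the female and 149 CPM (133 to 166) in the male library. An unnamed, shallow cluster rich in macrophage markers held 62.3 and 183 CPM, from 6 and 22 UMIs. Monocytes had none, where 3 UMIs would have been 3.13 and 5.06 CPM, so they were at least 17.4-fold (female) and at least 29.4-fold (male) lower than other macrophages. T cells held 1.72 and 2.10 CPM, NK cells 0 and 2.57 CPM and B cells 0.566 and 2.77 CPM. Lyve1-high macrophages had 3 and 0 UMIs, and type 2 dendritic cells 0 and 1. Endothelial cells, which also held macrophage markers, had 3 and 5. An H2-M2 UMI was found in 9.36% and 19.4% of other macrophages (median 3973 and 3494 UMIs) and in 0.586% and 0.543% of T cells (median 3895 and 3702 UMIs). T cells serve here as the class that gives the background share. At 1000 UMIs per cell, without the cells of fewer, the shares in other macrophages were 3.8% and 10.5%.

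Among other macrophages, nearly all H2-M2 UMIs came from cells high in MHC class II, the molecules that present to CD4 T cells. Cells were graded by their UMIs of Cd74 and the chains H2-Ab1, H2-Aa and H2-Eb1 among 1000 drawn, without cells of fewer UMIs, and the cut between low and high lay at 10 UMIs, with 30 of 1535 macrophages within 2 UMIs of it. The high cells held 73.8 CPM (95% interval 62.6 to 86.5) in the female and 154 CPM (137 to 171) in the male library, from 460 and 506 cells. The 171 low female cells held 2.54 CPM (2 UMIs), a ratio of 0.0344 to the high cells, and the 19 low male cells none, which is at least 3.26-fold lower. H2-M2 was the 1 of the 10 genes lower in MHC class II low cells, against 1.52% of all genes. No other of the 10 genes was called in both libraries. In the 19 male low cells H2-T23 (94.3 against 279 CPM in high cells, a ratio of 0.338) and Psmb8 (173 against 391 CPM, 0.442) were past 1.5-fold lower, from 6 and 11 UMIs, with female ratios of 0.857 and 0.966. H2-Q6 and Tap1 were also past 1.5-fold lower and Tap2 higher in these male cells, from 1, 4 and 7 UMIs, with intervals that include 1. H2-K1 was 1344 and 1115 CPM in low and 1341 and 1341 CPM in high cells, and B2m 3408 and 3330.2 and 3456 and 3760.2 CPM. Even among high cells the UMIs came from a minority, 12.4% and 20.4% of cells, and the 5 cells with most held 25.5% and 20.6% of them. By cluster, the Ms4a7/Mmp12 macrophages were highest at 135 and 243 CPM, 8.56 and 2.10 times the AA467197/Tmem119 macrophages (15.8 and 116 CPM). The Aif1/Cxcl14 macrophages held 52.1 and 117 CPM. Of the graded female cells, 123 were low and 133 high in the AA467197/Tmem119 macrophages, and 12 low and 141 high in the Ms4a7/Mmp12 macrophages. The female ratio of 8.56 includes these low cells. Among high cells alone, the Ms4a7/Mmp12 macrophages held 146 and 254 CPM and the AA467197/Tmem119 macrophages 24.96 and 119 CPM. The female value of the latter rests on 21 UMIs, 81.0% of them in 5 cells.

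**Figure D3:**
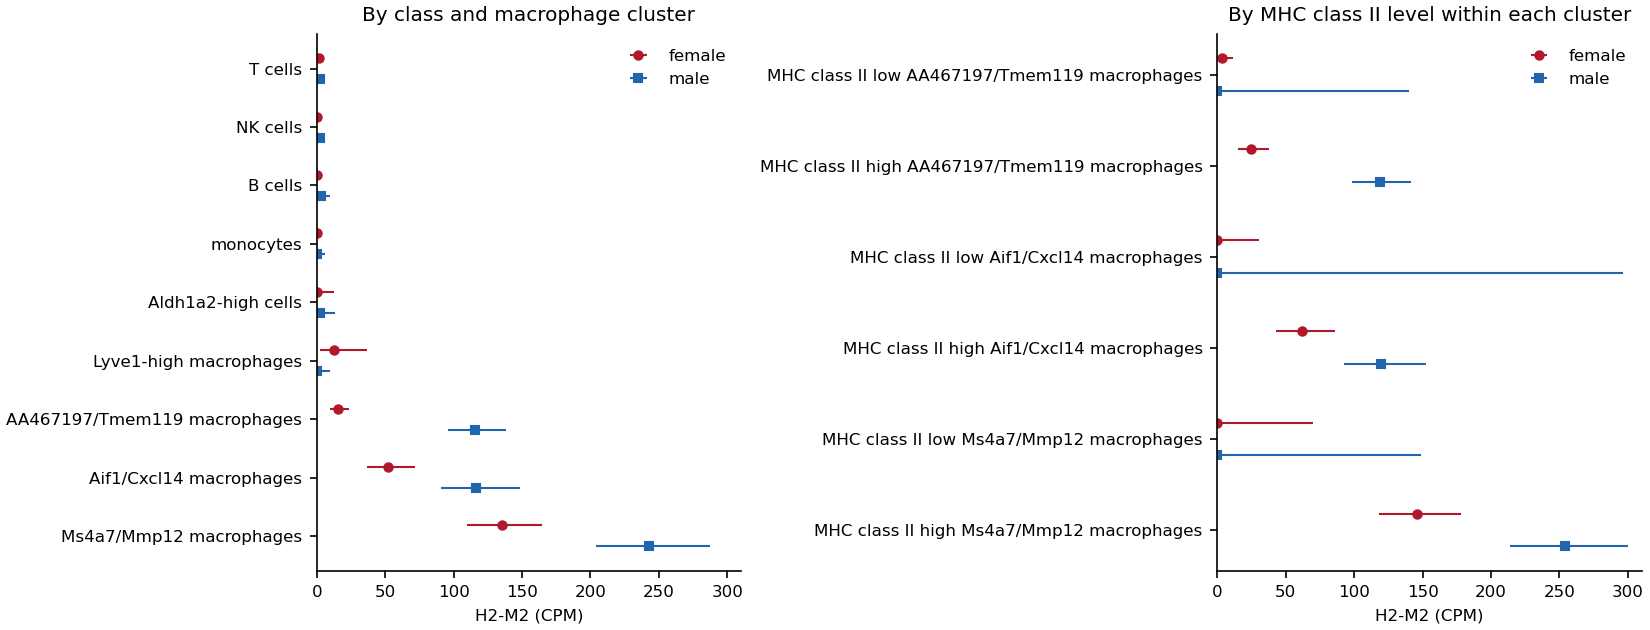
H2-M2 level in CPM by cell class and macrophage cluster (left), and in MHC class II low and high cells of each of the 3 clusters of other macrophages (right), in the female and male library with exact Poisson 95% intervals. The Ms4a7/Mmp12 macrophages are highest at 135 and 243 CPM, and in each cluster the low cells sit at or near 0, with wide bars where few cells were low.

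Between the Ms4a7/Mmp12 and AA467197/Tmem119 macrophages, with the MHC class II low cells of each included, 3 of the genes were called. H2-M2 was the 1 of 9 comparable genes higher in the former (2.11% of all genes), and H2-Q7 (0.662 and 0.568) and Tap1 (0.664 and 0.591) were lower (2.18% of all genes), calls lost once ratios were taken relative to the median log2 ratio of all genes (-0.13 and -0.07). The Aif1/Cxcl14 macrophages had 5 of 8 comparable genes below the AA467197/Tmem119 macrophages (20.9% of all genes), H2-D1 (0.637 and 0.656), H2-Q7 (0.474 and 0.550), H2-T23 (0.559 and 0.495), Tap1 (0.614 and 0.613) and Tap2 (0.573 and 0.557). Relative to the median log2 ratio of all genes (-0.35 and -0.31) none of these stayed called, and B2m, at 3959 and 4655 against 3220.1 and 3536 CPM, was higher.

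Female and male cells of the same class had similar levels of most of these genes. The ratio of female to male CPM was centred on the median of all genes in the class and called past 1.5-fold either way. In T cells the 9 comparable genes ranged from 0.723 to 0.969 and none was called (5.2% of all genes were). In NK cells 9 ranged from 0.812 to 1.05 (4.09% of all genes called), in B cells 9 from 1.01 to 1.21 (7.69%), in monocytes 7 from 0.958 to 1.32 (7.04%) and in Lyve1-high macrophages 5 from 0.963 to 1.49 (10.2%), with no call. The classical chains were close, with H2-K1 in NK cells at 0.960 (95% interval 0.930 to 0.991) and H2-D1 in other macrophages at 1.10 (95% interval 1.05 to 1.15). In type 2 dendritic cells 2 of 7 were higher in the female library, against 6.49% of all genes (11.3% called either way), H2-Q7 at 1.88 (95% interval 1.26 to 2.87) and Tap1 at 1.51 (95% interval 0.931 to 2.54), the interval of the latter including 1. H2-Q7 stood there at 159.9 and 84.0 CPM. The B-cell markers in these cells were 18035 and 275 CPM in the female and male library, and their part in this result was not tested.

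In other macrophages H2-M2 was the 1 of 10 genes called (6.95% of all genes), at 0.366 (95% interval 0.300 to 0.444) of the male level, 54.4 and 149 CPM. The remaining 9 genes ranged from 0.764 to 1.39. The libraries also differed in MHC class II low cells, 171 female against 19 male, and H2-M2 was near 0 in these. Among MHC class II high cells alone, the ratio was 0.494 (0.405 to 0.600), still lower in the female library. It was 0.213 (0.127 to 0.341) in high cells of the AA467197/Tmem119 macrophages, 0.518 (0.334 to 0.790) in those of the Aif1/Cxcl14 and 0.583 (0.445 to 0.761) in those of the Ms4a7/Mmp12 macrophages, so the direction was shared by the 3 clusters. The first of these rests on 21 female UMIs in 9 of 133 cells, 81.0% of them in 5 cells. Among the smaller classes and the clusters, H2-K1 in neutrophils was 1.55 (95% interval 1.04 to 2.33), the 1 of 3 comparable genes called there (18.4% of all genes). In mast cells, from 25 and 6 cells, 1 of 2 comparable genes was called, lower in the female library at 0.589 (20% of all genes). In Ms4a7/Mmp12 macrophages Tap2, at 0.495 (95% interval 0.320 to 0.758), and H2-M2 were the 2 of 9 called (7.1% of all genes), and in Mzb1/Zcwpw1 B cells H2-T23, at 1.52 (95% interval 1.10 to 2.16), was the 1 of 6 (12.5%). With 1 library per sex, sex and library cannot be told apart.

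**Figure D4:**
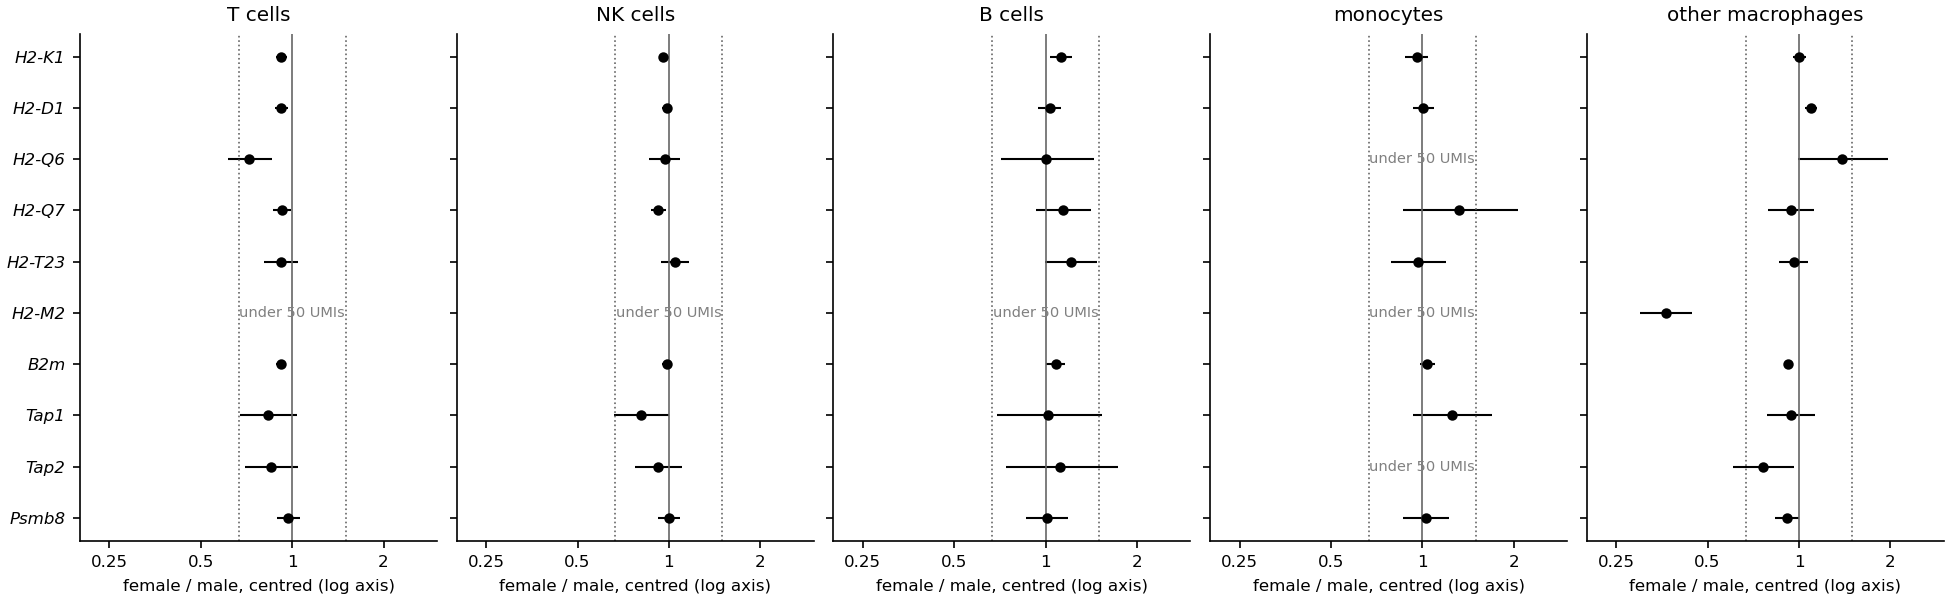
Ratio of female to male CPM (log axis), centred on the median of all genes, for the 10 genes in 5 cell classes, with exact conditional binomial 95% intervals and lines at 1.5-fold. H2-M2 in other macrophages lies at 0.366, and all other points lie between the lines. Genes with too few UMIs are marked as such.

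Single cells within a class were spread around these means. Cells with under 1000 UMIs were again left out, 13 and 10 T cells, 17 and 15 B cells, 33 and 12 monocytes and 10 and 6 Aldh1a2-high cells among them. Among 1000 UMIs, the median cell held 5 and 5 UMIs of the classical chains (H2-K1 and H2-D1 together) in NK cells, 4 and 4 in T cells, 3 and 2 in other macrophages and 2 and 2 in B cells. From the tenth to the ninetieth percentile, NK cells held between 2 and 9 UMIs in both libraries, and classes overlapped widely cell by cell. For B2m the median was 3 and 4 in other macrophages, 3 and 3 in monocytes and 1 and 1 in B cells. No B2m UMI was drawn in 5.07% and 3.62% of other macrophages but in 32.1% and 31.6% of Aldh1a2-high cells, which at this depth speaks of detection and not of absence.

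**Figure D5:**
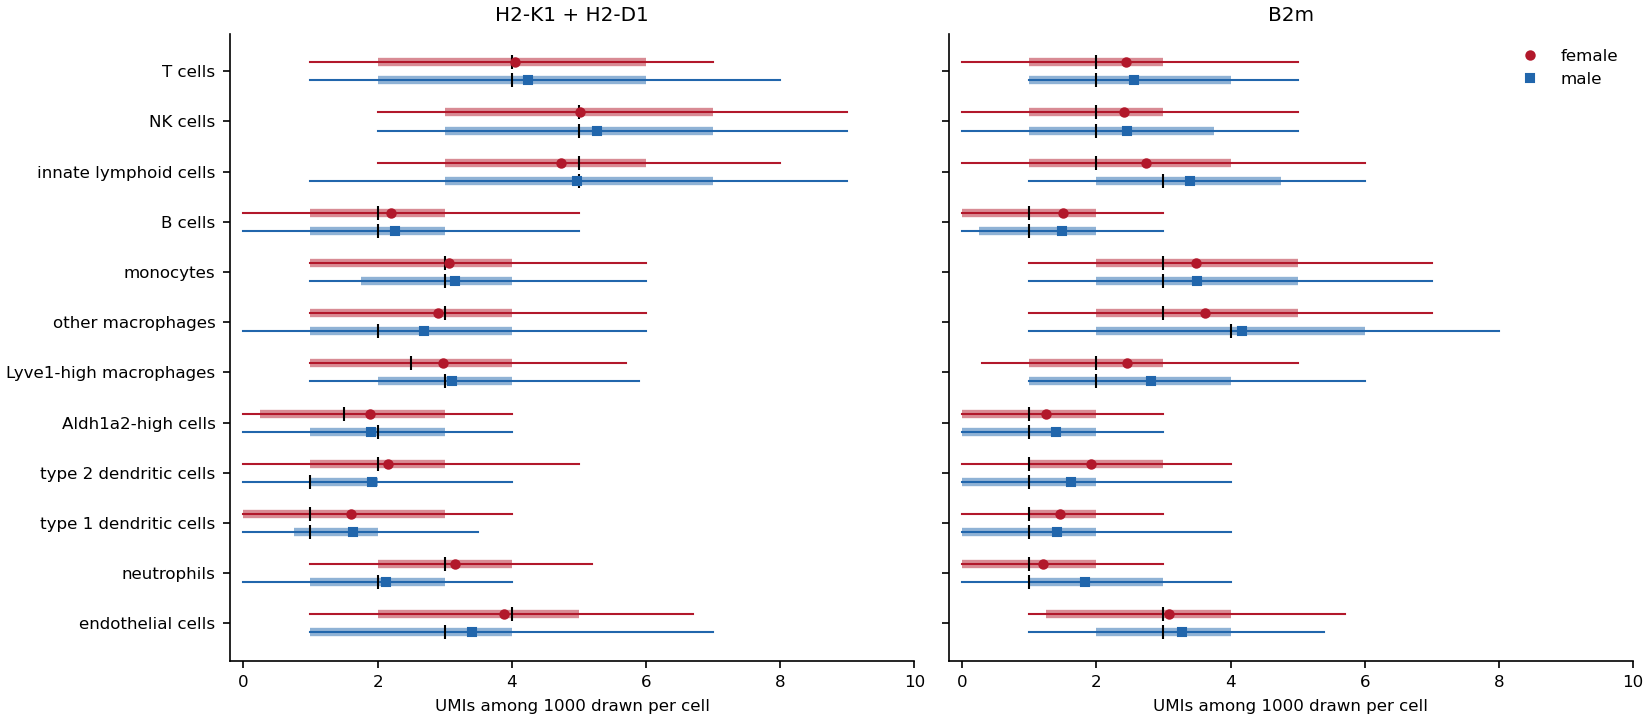
UMIs per cell among 1000 drawn, for the classical chains H2-K1 and H2-D1 together (left) and for B2m (right), by cell class and library, without cells of under 1000 UMIs. Points are means, black ticks medians, thick bars the middle 50% of cells and thin lines the tenth to ninetieth percentile. NK cells have a median of 5 for the classical chains, B cells 2.

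The other genes of the pathway were followed as lists of known genes, of which up to 4 past 1.5-fold are named for each comparison. Among other heavy chain genes, H2-T22 (125 and 145 CPM), H2-Q4 (78.4 and 97.7) and H2-Q10 (31.3 and 34.5) were higher in NK cells than in other macrophages (58.6 and 56.2, 26.2 and 22.4 and 8.02 and 6.85 CPM), and H2-M3, which presents formylated peptides, was lower (49.4 and 44.7 against 76.0 and 85.9 CPM), of 4 comparable (of all genes, 27.3% were higher and 20.2% lower). Calreticulin (Calr, 809.9 and 889 CPM in other macrophages), calnexin (Canx, 308 and 359) and Hspa5 (656 and 734), chaperones of the endoplasmic reticulum, were among 4 of 9 loading genes lower in NK cells. The tapasin-like editor Tapbpl was higher there, at 51.4 and 68.4 against 20.9 and 24.2 CPM. Averaged over both libraries, the median log2 ratio of the loading list was -0.28, with 0.25 over all genes tested.

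Interferon-stimulated genes were mostly lower in NK cells than in other macrophages. Of 15 comparable, 11 were lower and 1 higher, against 20.2% and 27.3% of all genes, with a median log2 ratio of -2.38 (all genes 0.25). Oasl2, an antiviral gene, was 2.23 and 2.57 CPM in NK cells and 158 and 140.3 CPM in other macrophages, and Rsad2 was 4.47 and 0.514 and 32.1 and 32.0 CPM. In B cells all 13 of 13 were lower than in other macrophages, against 35.1% of all genes, and all 13 were lower relative to the median of all genes (-0.34 and -0.35). Bst2, for example, was 67.4 and 63.8 CPM against 536 and 599 CPM. Nlrc5, the transactivator of class I promoters, was higher in NK cells (45.7 and 54.5 CPM) and T cells (53.7 and 66.7 CPM) than in other macrophages (30.0 and 17.8 CPM) and lower in B cells than in T cells (10.8 and 6.94 CPM). The receptors of class I molecules are markers of the cell types that use them, with 9 of 11 higher in NK cells than in other macrophages (27.3% of all genes), such as Klrc1 (421 and 595 CPM) and Klra8 (431 and 439.8 CPM). Cd8b1 stood at 375 and 349 CPM in T cells, and Pirb and Lilrb4a, inhibitory receptors of myeloid cells, were lower in B cells than in other macrophages (32.8 and 37.5 against 134 and 141 CPM for Pirb).

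In Aldh1a2-high cells the immunoproteasome and interferon lists were low together with the class I genes. Psmb9 (65.7 and 79.8 against 167 and 212 CPM in other macrophages), Psme1 (187 and 195 against 426 and 480.2) and Psme2 (111 and 86.9 against 196 and 205) made 3 of 4 immunoproteasome and activator genes lower, against 18.4% of all genes, with a median log2 ratio of -1.14. Of the standard proteasome, 1 of 14 was lower and 1 higher (14.4% of all genes higher). The regulators Irf8 (34.6 and 72.8 CPM against 237 and 298) and Irf1 (31.1 and 18.8 against 86.2 and 85.4) were lower, as were 9 of 13 interferon-stimulated genes (18.4% of all genes), with a median log2 ratio of -2.20, among them Irf7 (10.4 and 9.39 against 78.1 and 65.3) and Oasl2 (13.8 and 23.5 against 158 and 140.3). In Lyve1-high macrophages the standard proteasome was low as well, with 7 of 14 genes, and 6 of 13 interferon-stimulated genes, against 12.9% of all genes. Psme1 (219 and 134 CPM) and Psme2 (114 and 74.7 CPM) were also lower in these cells, while Psmb9 and Psmb10 were not past 1.5-fold in both libraries. Type 1 dendritic cells had more Psmb9 as well (617 and 543 against 173 and 186 CPM in type 2 dendritic cells) and Psme1 (813 and 799.8 against 374 and 382 CPM), 2 of 3 comparable (4.39% of all genes). T cells had 3 of 4 such genes above B cells (21.8% of all genes), 1 of them relative to the median of all genes. Neutrophils had all 14 of 14 standard proteasome genes below monocytes, against 46.7% of all genes, and 8 were lower relative to the median log2 ratio of all genes (-0.64 and -0.59). In the Ace/Nr4a1 monocytes, whose H2-K1 and B2m were high, 4 of 6 interferon-stimulated genes were lower than in the Chil3/Plac8 monocytes (12.6% of all genes).

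Between the sexes, monocytes had 4 of 12 interferon-stimulated genes higher in the female library, Ifit1 (centred ratio 3.27, 66.7 and 20.2 CPM), Oas1a (2.49), Rsad2 (1.74) and Gbp2 (1.72), against 3.7% of all genes, while none of their 7 comparable class I genes was called. In other macrophages Nlrc5 was the 1 of 13 regulators higher in the female library (1.68, 30.0 and 17.8 CPM), against 4.48% of all genes. Of 17 interferon-stimulated genes, Iigp1 (2.10) and Cxcl9 (1.60) were higher and Ifit2 (0.627) lower there, against 4.48% and 2.47% of all genes. The MHC class II genes were lower in the female library in 6 of 7 comparable, H2-Ab1 for example at 0.564 and H2-Eb1 at 0.574, against 2.47% of all genes. The 171 female and 19 male MHC class II low cells are among those counted. In MHC class II high cells alone, which are chosen by H2-Ab1, H2-Aa, H2-Eb1 and Cd74 themselves, 0 of 7 were called, with H2-Ab1 at 0.767 and H2-Eb1 at 0.782.

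The genes whose levels followed each class I gene most closely were ranked by the lower of both libraries' Pearson correlations of log2(CPM + 10) across the 12 classes, over 5623 genes. The 10 genes themselves were left out of this ranking and are compared among themselves at the end. The classes share a library and its depth, so these are descriptions. H2-K1 was most like Inpp4b (r = 0.913 and 0.896), Bcl9l, Sec62, Prrc2c and Dnajc1, and H2-Q7 most like Bcl2 (0.923 and 0.929), the survival gene of lymphocytes, Inpp4b and Tnik. H2-T23 was nearest to Herc6 (0.833 and 0.794), Skil and Xaf1, of which Herc6 and Xaf1 are interferon-stimulated genes. H2-M2 was nearest to Zmynd15 (0.979 and 0.970), Olfml3 (0.951 and 0.935) and Col14a1 (0.911 and 0.965), which stood at 124 and 195, 177 and 168 and 132 and 107 CPM in other macrophages. As H2-M2 was hardly found in most other classes, these correlations rest mainly on other macrophages and mark genes high there. B2m was most like Lgals3bp (0.878 and 0.926), Ms4a6b and Lpar6, Tap1 most like Havcr2 (0.744 and 0.728), Iscu and Ccdc12, and Psmb8 most like Rpl10-ps3 (0.933 and 0.926), Eef1b2 and Psme2, the last an activator subunit of the proteasome (0.909 and 0.901). Among the 10 genes, H2-Q6 and H2-Q7 were closest (0.956 and 0.938), followed by H2-K1 with H2-Q6 (0.897 and 0.901) and H2-K1 with H2-Q7 (0.891 and 0.892). H2-K1 and B2m reached 0.691 and 0.707.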

How the data were processed

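The authors aligned reads and counted UMIs with Cell Ranger 4.0.0 on mm10, and deposited raw UMI counts for each gene and barcode. The annotation version is not given in the sources used here, and coordinates were taken from GENCODE vM21 on GRCm38. Barcodes with at least 200 genes and at most 15% mitochondrial UMIs were kept, and doublets were removed by Scrublet score (scanpy 1.11.5) at 0.8% per 1000 barcodes, 3.17% and 2.15%, since its automatic threshold marked 2 and 10 barcodes. Clusters came from Seurat 5.3.0 (R 4.3.3, sctransform 0.4.2, 2000 features, 20 components, resolution 1), leaving out 90 class I, class II, interferon and sex-linked genes, which gave 20 clusters, 18 of them named by markers.

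UMIs were summed over the cells of a class (Python 3.11.15, scipy 1.17.1) and divided by the class total to give CPM. Intervals are exact (Poisson for levels, conditional binomial for ratios) and cover counting error only. With 1 library per sex there was no test, and a gene was called past 1.5-fold with at least 50 UMIs in a library. A count of 0 was bounded at 3 UMIs. The 1.2% mitochondrial limit in the study's methods kept 322 and 354 cells, many fewer than the study states were left, so the quantity it limited may be another than the one read here. It was used as an alternative, with other filters, clusterings, gates, scalings and draws. The genes, lists and comparisons were chosen with earlier results of these data known. The scoring rule for naming clusters, the split of mast from innate lymphoid cells at 6 mast cell UMIs, the 16 contrasts between classes, centring them, the comparison of MHC class II low with high cells within other macrophages and the GAAGTGAAA and ATTGG motifs were set after clusters or promoters had been seen. Named genes were the 10 genes, up to 4 of each pathway list past the fold in a comparison, and the 3 to 5 most similar genes. Mast cells, under 30 cells in a library, were left out of the class order. A gene of the pathway lists is not reported here.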

Additional observations from a re-analysis of the deposited data

Results flagged for a closer look

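Of 136 comparisons of a gene between classes or clusters, 18 had ratios on opposite sides of 1 in the female and male library, and in 2 of them the counting intervals of both libraries left out 1. The difference between the libraries itself was not tested. H2-D1 in T cells relative to other macrophages was 0.908 in the female and 1.09 in the male library. B2m in Ms4a7/Mmp12 relative to AA467197/Tmem119 macrophages was 1.07 in the female and 0.91 in the male library. All 4 ratios are within 1.5-fold.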

How the results depend on the processing

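No paired analysis was possible because each sex had 1 library. Of 231 values computed again under an alternative, 186 kept their size and 45 moved, and resolution 0.5 moved none of 24. A reversal could be recorded for ratios only, of which 0 reversed. Counts of called genes kept their size where they stayed within 1.5-fold, even if other genes were called. Counts of the 10 genes called follow. With the 1.2% mitochondrial limit, T cells against other macrophages had 0 higher and 0 lower, B cells 0 higher and 2 lower (H2-D1 and B2m), Aldh1a2-high cells 2 lower (H2-K1 and B2m), and female against male gave 2 in B cells (H2-K1 and B2m), 1 in monocytes (H2-T23) and 0 in other macrophages, with few genes reaching 50 UMIs and no value for Lyve1-high macrophages, NK cells and type 1 dendritic cells. The gate on each cell's own markers left 1 lower gene in Lyve1-high macrophages (H2-M2) and 2 in Aldh1a2-high cells (H2-Q6 and H2-M2). Female against male monocytes gave 1 gene (H2-Q7) with the gate, 1 (H2-Q7) without doublet removal and 1 (H2-Q7) without the 5 cells with most UMIs, and 1 (Tap1) as a mean over cells. Female against male other macrophages gave 2 (H2-Q6 and H2-M2) without doublet removal and 2 (the same) without those 5 cells, and B cells 1 (H2-M2) with a minimum of 1 UMI. B cells against other macrophages had 2 lower (H2-M2 and B2m) on CPM without mitochondrial, ribosomal protein and class II genes and 2 (the same) centred. NK cells had 2 lower (H2-M2 and B2m) as a mean over cells and 3 (with Tap1) centred. The centred female to male ratio of H2-M2 in other macrophages was 0.494 in MHC class II high cells only and 0.341 to 0.443 under the other alternatives. A draw of 2000 in place of 1000 UMIs raised the share of NK cells with an H2-Q7 UMI to 75.6% and 80.7% and that of other macrophages with H2-M2 to 5.71% and 16.6%, so depth limits these shares. The centred contrasts, the contrast over all macrophages and the values in class II high cells alone were chosen after seeing the data. The cause of these shifts was not tested.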

Other observations

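2 clusters stayed unnamed and entered no comparison. The first (70 and 144 female and male cells), led by Adap2os, Vcam1 and Mmp13, was shallow, with median depths of 798 and 669.5 UMIs, and held 39394 and 30499.5 CPM of the 10 macrophage markers. Its H2-M2 was 62.3 and 183 CPM from 6 and 22 UMIs, its Tap1 145 and 291 CPM and its B2m 1922 and 1644 CPM. The second, of proliferating cells (30 and 10), held 627 and 834 CPM of Psmb8, 828 and 704 CPM of H2-Q7 and 2097 and 2379.6 CPM of H2-K1. Mast cells held 748 and 1193 CPM of H2-D1, 568 and 565 CPM of H2-K1 and 1780.2 and 1445 CPM of B2m, from 25 and 6 cells.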
